A study of Mus musculus with 21 samples.

Results

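CatSper is the calcium channel of the sperm tail. The 10 genes described here encode its 4 pore subunits (*Catsper1*, *Catsper2*, *Catsper3* and *Catsper4*), auxiliary subunits (*Catsperb*, *Catsperd*, *Catsperg1* and *Catsperg2*), the potassium channel SLO3 (*Kcnu1*) and the sperm sodium/proton exchanger sNHE (*Slc9c1*). They were chosen by name, and all 10 were found among the 24456 genes counted in each of 21 RNA libraries. The libraries came from fractionated germ cells of mouse testis and from mouse spermatozoa. They were labelled *H2al2* WT or *H2al2* KO, where KO stands for loss of the gene of H2A.L.2, a histone variant of late spermatogenesis. Pachytene spermatocytes (cells in meiotic prophase), round spermatids (haploid cells after meiosis) and condensing spermatids (haploid cells whose nucleus is compacted) each had 3 WT and 3 KO libraries, and spermatozoa had 2 WT and 1 KO library. The study's title names the control of gene expression after meiosis by H2A.L.2, and the comparisons were made between stages within a genotype and between genotypes within a stage. The allele, the strain, the age of the mice, the purity of each fraction and whether replicates came from separate animals are not given in the sources used here. The paper calls the replicates biological, and it also calls those of wild-type round spermatids independent. Standard deviations (SD) describe the spread between these libraries. Standard errors (SE) and p-values rest on the spread between libraries as each test estimates it, over all libraries of a fit.

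Counts on genes ranged from 5799060 to 8201682 per library in the 3 stages of the testis. They were lower in spermatozoa, at 3450580 and 2772995 in WT and 3297783 in KO. Levels are given as CPM, the counts of a gene relative to the library's total, normalized by the trimmed mean of M-values (TMM) over all 21 libraries. Where a gene had 0 counts, up to 3 counts could have been missed, which is 0.366 to 1.08 CPM depending on the library and covers counting error only. WT round spermatid replicates 2 and 3 were closer to each other than any other pair of replicates. Their mean chi-square per gene, over genes with moderate counts, was 1.06, against 1.90 to 12.2 in the other 18 pairs. Counting error alone gives about 1, so these 2 libraries may not be separate samples, the SD of WT round spermatids may be too small, and the tests that use them were repeated with both summed into 1 library.

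In mature sperm, CatSper lets calcium into the principal piece of the tail when the cytoplasm becomes alkaline and the membrane is depolarized, and this calcium drives the vigorous tail beat called hyperactivation. SLO3 is a potassium channel, opened by alkaline pH, that carries the main potassium current of mouse sperm and hyperpolarizes the membrane during capacitation, while sNHE is linked to the control of sperm pH and of soluble adenylyl cyclase. Males that lack a CatSper pore subunit, SLO3 or sNHE are infertile in mice, and in the pore subunits' case the mutant sperm fail to hyperactivate.

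The genotype labels were checked first on *H2afb1*, under which name the count table lists the gene read here as that of H2A.L.2. RefSeq gives *H2afb1* as an older symbol both of the H2A.L.2 gene *H2al2a* and of *H2ab1*, whose other name has a line of its own in the table. Its low level in KO was also used in reading it this way, so this check of the labels is not independent. In round spermatids it was at 201, 206 and 211 CPM in the 3 WT libraries and 25.3, 25.4 and 20.7 CPM in the 3 KO libraries. In condensing spermatids the levels were 190.1, 159.9 and 250.04 CPM in WT and 26.5, 35.7 and 29.9 CPM in KO, and in pachytene spermatocytes 40.8, 36.7 and 14.5 CPM in WT and 4.81, 4.92 and 3.16 CPM in KO. Every KO library lay below every WT library of its stage, and signal above 0 was left in each KO library. Differences were tested with the quasi-likelihood test of edgeR, with p-values adjusted by the method of Benjamini-Hochberg over all genes tested, and were called at an adjusted p under 0.05. The log2 fold change of KO against WT was -3.10 ± 0.10 (SE) in round spermatids (adjusted p = 3.4e-08), while condensing spermatids gave -2.71 ± 0.17 (adjusted p = 9.54e-07). In pachytene spermatocytes it was -2.75 ± 0.37 and not called (adjusted p = 0.484), but it was called without WT replicate 3 (adjusted p = 5.17e-05), by the DESeq2 Wald test (adjusted p = 6.79e-11), with no filter (0.0017) and in the fit of 18 libraries (0.000135), within a range of 6.79e-11 to 0.958 over its alternatives.

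The stage labels were checked on marker lists. The 6 of 6 round spermatid markers found, led by *Tssk2*, summed to 1654, 1848 and 1857 CPM in WT round spermatids, against 429, 478 and 278 CPM in WT pachytene spermatocytes and 1158 to 1336 CPM in WT condensing spermatids. For the 7 of 7 pachytene spermatocyte markers, led there by *Piwil1*, the sums were 1966, 1755 and 2539.7 CPM in WT pachytene spermatocytes and 564, 681 and 655 CPM in WT round spermatids, and in WT condensing spermatids they were higher again, at 893 to 1092 CPM. The 8 of 8 markers of elongating or condensing spermatids, led by *Prm2*, summed to 26630.1, 28442 and 29406 CPM in WT round and 31224, 26698 and 39509 CPM in WT condensing spermatids, so this list did not separate those stages. Among WT pachytene libraries it gave 5509, 5233 and 2229.7 CPM, lowest in replicate 3, which also had the lowest sum of round spermatid markers and the highest sum of pachytene markers. In KO the round spermatid markers summed to 329 to 378 CPM in pachytene, 1656 to 1797 CPM in round and 1201 to 1420.04 CPM in condensing spermatids, and the pachytene markers to 2215 to 2958, 491 to 691 and 905 to 1053 CPM. The elongating list gave 2934 to 3190.5 CPM in KO pachytene spermatocytes, 23787 to 30684 CPM in KO round and 26338 to 39572 CPM in KO condensing spermatids.

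Round spermatids held the largest share of reads on the 10 genes. Together the genes took 0.175% to 0.178% of the counts in WT round libraries, 0.123% to 0.149% in WT pachytene spermatocytes, 0.0995% to 0.129% in WT condensing spermatids and 0.0531% and 0.0608% in WT spermatozoa. From pachytene spermatocytes to round spermatids in WT, 7 of 10 genes rose, against 34.4% of the 14011 genes tested, and 2 fell, against 35.9%. From round to condensing spermatids in WT, 0 rose, against 28.3% of all genes tested, and 8 of 10 fell, against 21.8%. With WT round replicates 2 and 3 summed, 5 rose and 1 fell at the first step, beside 4652 and 4736 of all genes in that fit. There *Catsperd* (0.145), *Catsperg1* (0.0756) and *Slc9c1* (0.0745) had an adjusted p above 0.05 by edgeR. At the second step of the summed fit 0 rose and 7 fell, without *Catsperg1* (0.0938), beside 3548 and 2578 of all genes. Library size as the only scaling gave 5 higher and 2 lower at the first step, no filter 6 and 1, and DESeq2 7 and 1. Over all genes the same settings gave 4189 higher and 5778 lower, 5140 and 5252, and 4806 and 4760, beside 4816 and 5031 in the main fit. None of the 10 had a log2 fold change above 0 at the second step, called or not, and DESeq2 also called 0 higher, beside 3504 of all genes. The median log2 fold change of the 10 genes was 0.63 at the first step, beside -0.016 for all genes tested, and -0.72 at the second, beside 0.043. Both steps use the same 3 WT round libraries, so their values stand side by side here and are not independent of each other. In these bulk fractions, fewer cells of a type and less RNA per cell cannot be told apart. When libraries were scaled by their totals alone, the median of all genes moved by -0.19 at the first step in WT and by -0.15 in KO. Relative to the median of all genes, the 10 genes' median at the first WT step was then 0.64, beside 0.65 with TMM. A change of scaling shifts all genes nearly alike, so these 2 values are close by construction. As a share of counts, mitochondrial ribosomal RNA was 4.58% to 6.04% in WT pachytene, 3.38% to 3.70% in WT round and 4.48% to 6.47% in WT condensing spermatids, lowest in round spermatids without overlap, and its part in the result was not tested.

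**Figure D1:**
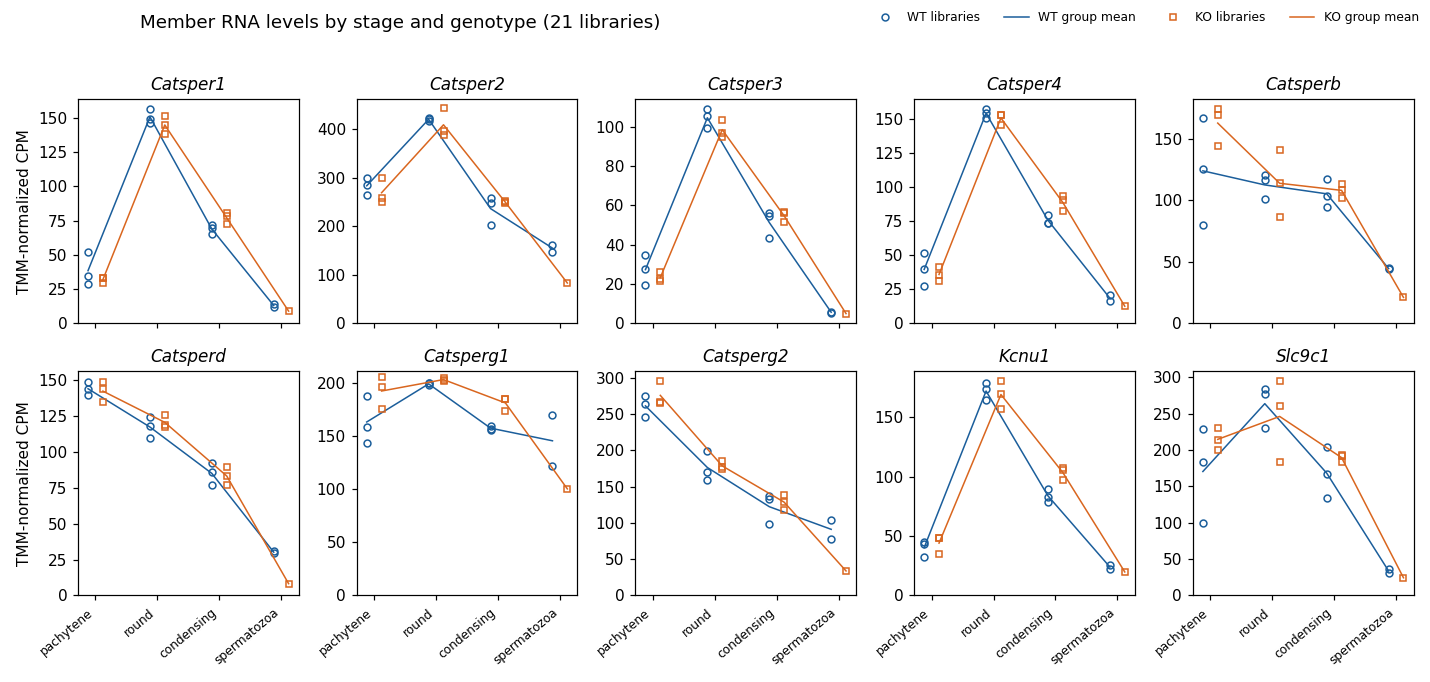
Levels of the 10 genes in each of the 21 libraries, as TMM-normalized CPM on a linear axis, by stage and genotype. Each library is 1 point, and a line joins the group means of each genotype. *Catsper1* lay at 147 to 156 CPM in WT round spermatids and 28.4 to 52.3 CPM in WT pachytene spermatocytes, whereas *Catsperg2* lay at 159.8 to 199 and 246 to 275 CPM.

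Marker lists of other cells moved with the stages as well. The 9 of 9 Sertoli cell markers, led by *Clu*, summed to 35.0 to 40.03 CPM in WT pachytene, 47.6 to 63.9 CPM in WT round and 486 to 633 CPM in WT condensing spermatids, with *Amh* at 0 in WT round replicates 1 and 2 and *Rhox5* at 0 in replicate 2. The 7 of 7 Leydig cell markers, led by *Cyp17a1* in pachytene and condensing libraries and by *Cyp17a1*, *Star* or *Insl3* in round libraries, gave 79.7 to 164, 11.3 to 15.1 and 147 to 232 CPM, with *Lhcgr* at 0 in WT round replicate 2. For the 5 of 5 peritubular myoid markers, led by *Actg2*, the sums were 54.3 to 95.2, 329 to 336 and 305 to 412 CPM, with *Cnn1* at 0 in WT pachytene replicate 1. *Actg2* alone was at 34.8 to 80.4, 313 to 322 and 268 to 351 CPM, so these sums mainly follow this gene. The rest of the peritubular list overlapped between WT pachytene and WT round libraries and was highest in WT condensing libraries, without overlap. The 6 of 6 macrophage markers, led by *C1qb*, *Csf1r* or, in WT pachytene replicate 3, *Adgre1*, gave 2.20 to 3.73, 18 to 22.2 and 22.0 to 28.5 CPM, with *Cd68* at 0 in WT pachytene replicate 3. Red blood cell markers (5 of 5 found, led by *Alas2*) stayed at or under 1.95 CPM in WT pachytene and round spermatids. They reached 18.5 to 24.9 CPM in WT condensing spermatids, with *Hba-a1* and *Hbb-bt* at 0 in every library. *Alas2* alone was at 17.0 to 22.9 CPM in WT condensing spermatids, so these sums mainly follow this gene. Spermatogonium markers (6 of 6, led by *Kit* or *Uchl1*) summed to 39.0 to 53.1, 43.6 to 47.7 and 69.6 to 77.7 CPM. Sums of the Sertoli, red blood and spermatogonium lists, and of the peritubular list without *Actg2*, were thus highest in condensing spermatids without overlap. Condensing sums of the Leydig list were above those of round libraries and overlapped those of pachytene libraries. From round to condensing spermatids 8 of the 10 genes were lower, and the markers' part in the result was not tested.

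The pore is built from 4 different subunits, and the genes of 3 of them, *Catsper1*, *Catsper3* and *Catsper4*, had nearly the same course. *Catsper1* was at 34.4, 52.3 and 28.4 CPM in the 3 WT pachytene libraries, 147, 149.6 and 156 CPM in WT round spermatids and 69.7, 71.8 and 65.0 CPM in WT condensing spermatids. *Catsper3* went from 27.4, 34.7 and 19.6 CPM to 99.4, 109 and 105 CPM and then 54.5, 56.0 and 43.2 CPM in the same order. For *Catsper4* the levels were 39.6, 51.3 and 27.6 CPM, 154, 151 and 157 CPM and 73.4, 79.8 and 73.4 CPM. In each of these genes, round spermatids stood apart above both other stages and condensing spermatids lay between, with no overlap between the stages, and within pachytene spermatocytes replicate 2 was the highest and replicate 3 the lowest library. By edgeR's quasi-likelihood test, *Catsper1* rose from pachytene to round spermatids by a log2 fold change of 2.00 ± 0.18 (SE; adjusted p = 5.26e-07) and then fell to condensing spermatids by a log2 fold change of -1.11 ± 0.17 (adjusted p = 0.000231). *Catsper3* rose by 1.97 ± 0.17 (adjusted p = 5.24e-07), and its second step was -1.0 ± 0.17 (adjusted p = 0.000397). *Catsper4* rose by 2.00 ± 0.17 (adjusted p = 4.4e-07), with a second step of -1.0 ± 0.17 (adjusted p = 0.000377). The pachytene levels of these genes moved with the spermatid marker sums given above, both lowest in replicate 3, and the markers' part in the result was not tested.

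*Catsper2*, the gene of the remaining pore subunit, was already abundant in spermatocytes. It was at 300.2, 285 and 265 CPM in WT pachytene spermatocytes, 423, 422 and 416 CPM in WT round spermatids and 247, 258 and 203 CPM in WT condensing spermatids. All 3 round libraries were higher than any other, and the condensing libraries lay below the pachytene libraries. The rise into round spermatids was smaller than for the other pore subunits, at a log2 fold change of 0.60 ± 0.12 (SE; adjusted p = 0.00054, edgeR), while the fall into condensing spermatids, -0.81 ± 0.12 (adjusted p = 0.000166), was of a similar size to theirs. Differences between genes in these fold changes were not tested.

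The auxiliary subunits are membrane proteins with large extracellular parts that assemble with the pore, and none of their genes had a rise of the size seen for *Catsper1*. *Catsperd*, whose product is needed for a stable channel complex, was at 139.7, 144 and 149 CPM in WT pachytene, 125, 109.6 and 118 CPM in WT round and 86.2, 92.0 and 77.0 CPM in WT condensing spermatids. *Catsperg2* was at 264, 275 and 246 CPM, 199, 170.4 and 159.8 CPM and 137, 132 and 97.9 CPM in that order. Both genes were highest in pachytene spermatocytes and lowest in condensing spermatids, with no overlap between the stages. *Catsperg2* fell at both steps, by log2 fold changes of -0.53 ± 0.14 (SE; adjusted p = 0.00423) and -0.50 ± 0.14 (adjusted p = 0.0107) in edgeR's test. For *Catsperd* the second step was called (-0.44 ± 0.11, adjusted p = 0.00616). Its first step, -0.26 ± 0.11 (adjusted p = 0.0495), was no longer called in 8 of the 9 fits that left out 1 WT library, all but the one without condensing replicate 3 (adjusted p = 0.056 to 0.19), nor in 6 of 8 other alternatives, the DESeq2 Wald test among them (adjusted p = 0.0669; 0.00551 to 0.19 over all alternatives).

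*Catsperg1* and *Catsperg2* are close copies on chromosome 7, and aligned over 4379 bases their longest transcripts were 97.0% identical. Of all stretches of 75 bases, 28.7% in *Catsperg1* and 28.4% in *Catsperg2* were also present in the other gene, and the authors did not count reads that align to more than 1 place, so both counts leave out such reads. *Catsperg1* was at 159, 144 and 188 CPM in WT pachytene spermatocytes, 200.1, 198 and 200.2 CPM in WT round spermatids and 156, 157 and 160.3 CPM in WT condensing spermatids. Round libraries were the highest and close together, and the condensing libraries lay within the range of the pachytene libraries. The first step, 0.32 ± 0.12 (SE; adjusted p = 0.0337, edgeR), was not called in 7 of the 9 fits that left out 1 WT library, all but those without pachytene replicate 3 or condensing replicate 3 (adjusted p = 0.051 to 0.118), nor in 3 of 8 other alternatives, and with library size as the only scaling it was 0.13 (adjusted p = 0.415; 0.00281 to 0.415 over all alternatives). The second step, -0.31 ± 0.12 (adjusted p = 0.0487), was likewise lost in 7 of 9 such fits, all but those without pachytene replicate 2 or 3 (adjusted p = 0.0609 to 0.116), and in 5 of 8 other alternatives. These are calls at the edge of the threshold, unlike those of *Catsper1*, *Catsper3* and *Catsper4*, which held in every alternative run.

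*Catsperb* had no called change between these stages. Its levels were 125, 79.7 and 167 CPM in WT pachytene spermatocytes, 101, 120.4 and 116 CPM in WT round spermatids and 104, 117 and 95.1 CPM in WT condensing spermatids. The pachytene libraries spread over the whole range of the other stages, with replicate 2 lowest and replicate 3 highest, the opposite of the order for *Catsper1*. The first step was -0.11 ± 0.21 (SE; adjusted p = 0.661, edgeR) and turned to 0.17 without WT pachytene replicate 3 (adjusted p = 0.385; 0.0526 to 0.941 over all alternatives). The second step was -0.072 ± 0.21 (adjusted p = 0.802). Of the 75-base stretches of *Catsperb*, 10.1% were also present in *Gm18795*, a similar sequence elsewhere in the annotation.

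*Kcnu1*, the SLO3 gene, had the largest rise of the 10 genes from WT pachytene to WT round spermatids. It was at 43.4, 44.8 and 32.4 CPM in WT pachytene, 164, 178 and 173 CPM in WT round and 89.4, 83.2 and 78.5 CPM in WT condensing spermatids. The stages did not overlap, and the order was that of *Catsper1*, *Catsper3* and *Catsper4*. The log2 fold change was 2.13 ± 0.13 (SE; adjusted p = 4.35e-08, edgeR) at the first step and -1.01 ± 0.13 (adjusted p = 5.06e-05) at the second.

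*Slc9c1*, the sNHE gene, varied more between replicates. The levels were 183, 99.7 and 229 CPM in WT pachytene, 231, 277 and 284 CPM in WT round and 167, 204 and 134 CPM in WT condensing spermatids. Round libraries were the highest, by a narrow margin over pachytene replicate 3, while pachytene replicate 2 was the lowest library of all 9. The rise into round spermatids, 0.66 ± 0.25 (SE; adjusted p = 0.0289, edgeR), was not called without pachytene replicate 2 (0.38, adjusted p = 0.0742), without round replicate 2 (0.63, adjusted p = 0.0718) or round replicate 3 (0.61, adjusted p = 0.0805), with these 2 round libraries summed (0.62, adjusted p = 0.0745) or with library size as the only scaling (0.46, adjusted p = 0.126), in a range of 0.00143 to 0.126 over its alternatives. The step into condensing spermatids, -0.62 ± 0.25, missed the threshold (adjusted p = 0.0507). It was called by the DESeq2 Wald test (adjusted p = 0.0269), with DESeq2 size factors (0.0425), with no filter (0.0201), in the fit of 18 libraries (0.0246) and without condensing replicate 2 (0.0381), pachytene replicate 2 (0.00518), pachytene replicate 3 (0.0111) or round replicate 1 (0.0492), in a range of 0.00518 to 0.166.

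In KO mice, the same pore subunits and *Kcnu1* rose into round spermatids. From KO pachytene to KO round spermatids 5 of 10 genes rose, against 36.5% of the 13877 genes tested, and 3 fell, against 38.4%, with a median log2 fold change of 0.39 beside 0.00011 for all genes. From KO round to KO condensing spermatids 0 rose, against 29.7%, and 8 of 10 fell, against 24.5%, with a median of -0.61 beside 0.029. By edgeR 0 of the 10 log2 fold changes were above 0, and DESeq2 called 0 higher, beside 3645 of all genes. *Catsper1* was at 33.2, 33.0 and 29.3 CPM in KO pachytene, 138, 152 and 145 CPM in KO round and 72.2, 80.6 and 78.3 CPM in KO condensing spermatids, again without overlap. Its log2 fold changes were 2.17 ± 0.11 (SE; adjusted p = 6.84e-13, edgeR) and -0.90 ± 0.098 (adjusted p = 4.99e-07). For *Kcnu1* they were 1.93 ± 0.13 (adjusted p = 3.72e-11) and -0.70 ± 0.12 (adjusted p = 6.58e-05). The other pore subunits gave first steps of 0.59 (*Catsper2*), 2.07 (*Catsper3*) and 2.06 (*Catsper4*), and second steps of -0.70, -0.84 and -0.75, all called. *Catsperg2* fell at both steps (-0.64 and -0.46), and *Catsperd* at the second (-0.52). *Catsperd* was also called at the first (-0.25, adjusted p = 0.0252), except without KO pachytene replicate 2 (0.0829), KO round replicate 1 (0.0838) or KO round replicate 2 (0.0682) and by the DESeq2 Wald test (0.0698), with DESeq2 size factors (0.0609), with no filter (0.0511) or with at least 10 counts in each library (0.147), in a range of 0.0011 to 0.147. Mitochondrial ribosomal RNA was again lowest in round spermatids, at 5.52% to 6.50%, 3.11% to 3.59% and 6.22% to 7.51% of the counts in the 3 KO stages in order, and its part in the result was not tested.

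3 genes had a step that was called in 1 genotype and not in the other. *Catsperb* was at 175, 169.8 and 144 CPM in KO pachytene, 86.5, 114 and 141 CPM in KO round and 109, 113 and 102 CPM in KO condensing spermatids. The KO pachytene libraries lay above the KO round libraries, the highest of which nearly reached them. Its first step was -0.53 ± 0.14 in KO (SE; adjusted p = 0.00197, edgeR) and -0.11 ± 0.21 in WT, and the difference of the KO effects between the stages, tested as an interaction on all 18 libraries, was -0.42 ± 0.29 (adjusted p = 0.714). Its second step in KO, -0.061 (adjusted p = 0.738), turned to 0.095 without KO round replicate 3. *Catsperg1* was at 197, 206 and 176 CPM, 203, 202 and 205 CPM and 174, 185 and 186 CPM in the KO stages in that order, with the round libraries inside the range of the pachytene libraries. Its KO steps were 0.064 (adjusted p = 0.558), which turned to -0.091 with library size as the only scaling and to -0.011 without KO pachytene replicate 3, and -0.15 (adjusted p = 0.192), and the interactions were -0.26 (adjusted p = 0.679) and 0.15 (adjusted p = 1).

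*Slc9c1* was at 214, 229.6 and 201 CPM in KO pachytene, 184, 260.2 and 295 CPM in KO round and 193, 192 and 184 CPM in KO condensing spermatids. KO round replicate 1 lay among the KO condensing libraries, and the other KO round libraries were the highest. The first KO step, 0.18 ± 0.13 (SE; adjusted p = 0.219, edgeR), was called without that library (0.37, adjusted p = 0.00568; 0.00568 to 0.861 over all alternatives). Its interaction was -0.48 (adjusted p = 0.707). The second KO step, -0.36 ± 0.13 (adjusted p = 0.028), was not called without KO condensing replicate 1 (0.0502), 2 (0.0617) or 3 (0.0838) or KO round replicate 2 (0.0879) or 3 (0.142), with at least 10 counts in each library (0.0656) or in the fit of 18 libraries (0.171), in a range of 0.000317 to 0.171, and the interaction at this step was 0.25 (adjusted p = 1).

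**Figure D2:**
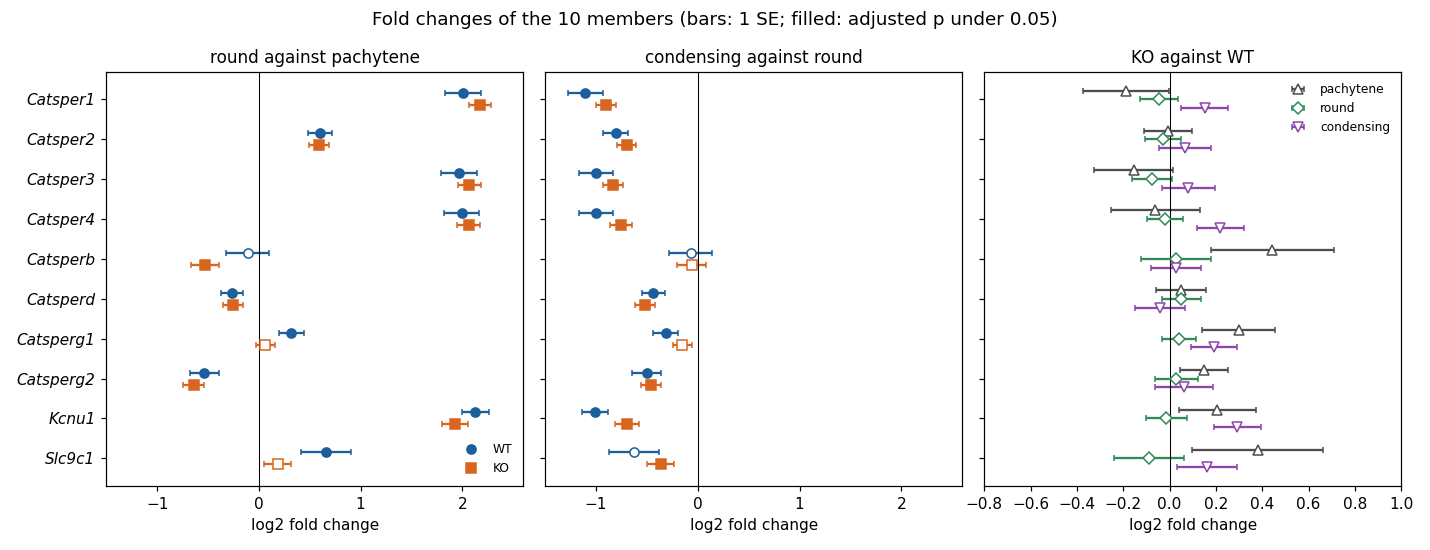
Log2 fold changes of the 10 genes with their standard errors, for the step from pachytene to round spermatids and the step from round to condensing spermatids in each genotype, and for KO against WT within each of 3 stages. At the first step *Kcnu1* stood at 2.13 in WT and 1.93 in KO, while KO against WT spanned -0.19 to 0.44 in pachytene, -0.088 to 0.050 in round and -0.042 to 0.29 in condensing spermatids.

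The comparison of genotypes within a stage asks whether loss of H2A.L.2 went with other RNA levels. In pachytene spermatocytes 0 of the 10 genes were called by edgeR, against 0% of the 12236 genes tested, 0 had an unadjusted p under 0.05, against 6.66%, and DESeq2 called 0 with 0 at an unadjusted p under 0.05, against 4.64%. Such a p was reached in 3 of the 13 alternatives, by *Catsperb* and *Catsperg1* in the fit of all 18 libraries (against 13.7%), by these and *Slc9c1* without WT replicate 3 (against 20.8%) and by *Kcnu1* without KO replicate 3 (against 13.4%). The genotypes' libraries did not overlap in 0 of the 10 genes, against 11.4% of all genes tested. *Catsperg1* had the smallest p, with 159, 144 and 188 CPM in WT and 197, 206 and 176 CPM in KO and a log2 fold change of 0.30 ± 0.16 (SE; unadjusted p = 0.0905, adjusted p = 0.656). *Catsperb* followed, with 125, 79.7 and 167 CPM in WT and 175, 169.8 and 144 CPM in KO (0.44 ± 0.26, unadjusted p = 0.129, adjusted p = 0.656), and then *Catsperg2* (0.15 ± 0.10, unadjusted p = 0.183, adjusted p = 0.663). For each of these genes the KO mean was higher and the ranges overlapped, with WT replicate 3 of *Catsperb* among the KO libraries. The median over the 10 genes was 0.099.

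In round spermatids the genotypes lay closest together. By edgeR 0 of the 10 genes were called, against 0.0156% of 12804 genes, with 0 at an unadjusted p under 0.05, against 5.88%, and DESeq2 gave 0 and 0, the latter against 3.05%. In all 14 alternatives 0 of the 10 genes reached an unadjusted p under 0.05. *Catsper3*, at 99.4, 109 and 105 CPM in WT and 94.9, 103 and 96.9 CPM in KO, had the smallest p (-0.075 ± 0.085, SE; unadjusted p = 0.397, adjusted p = 0.99). *Catsperd* gave 0.050 ± 0.084 (adjusted p = 0.992) and *Slc9c1* -0.088 ± 0.15 (adjusted p = 0.992), the latter turning to 0.092 without KO round replicate 1. Only *Catsperg1* had no overlap between genotypes, 1 of 10 genes against 9.86% of all genes tested, with 200.1, 198 and 200.2 CPM in WT and 203, 202 and 205 CPM in KO. The median over the 10 genes was -0.018.

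In condensing spermatids 4 of the 10 genes had no overlap between genotypes, against 12.1% of the 13734 genes tested, and in all 4 the KO libraries were the higher. *Kcnu1* was at 89.4, 83.2 and 78.5 CPM in WT and 97.2, 105 and 107 CPM in KO. *Catsper4* was at 73.4, 79.8 and 73.4 CPM in WT and 82.3, 93.2 and 90.5 CPM in KO, and *Catsperg1* at 156, 157 and 160.3 CPM and 174, 185 and 186 CPM. For *Catsper1* the levels were 69.7, 71.8 and 65.0 CPM in WT and 72.2, 80.6 and 78.3 CPM in KO. In each of these genes the lowest KO library lay above the highest WT library, by a small step for *Catsper1*. By edgeR 0 of the 10 genes were called, against 0.00728% of all genes tested, 2 had an unadjusted p under 0.05, against 6.33%, and DESeq2 called 0, with 1 at an unadjusted p under 0.05, against 3.49%. Over the 13 alternatives it was 1 to 3 of the 10 genes, against 3.49% to 10.7%. The log2 fold change was 0.29 ± 0.10 for *Kcnu1* (SE; unadjusted p = 0.0108, adjusted p = 0.658), 0.22 ± 0.10 for *Catsper4* (unadjusted p = 0.0471, adjusted p = 0.778) and 0.19 ± 0.10 for *Catsperg1* (unadjusted p = 0.0743, adjusted p = 0.84). The median over the 10 genes was 0.12. Sertoli markers summed to 454 to 519.9 CPM and Leydig markers to 89.0 to 134 CPM in KO condensing spermatids, beside 486 to 633 and 147 to 232 CPM in WT, and their part in the result was not tested.

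Differences between stages in the KO effect were tested on 18 libraries. Between round and pachytene spermatocyte stages 0% of 14479 genes and 0 of the 10 genes were called by edgeR, and between condensing and round spermatids 0% and 0. DESeq2 also called 0 of the 10 genes in either. By edgeR an unadjusted p under 0.05 was reached by 0 of the 10 genes in either, against 1050 and 407 of the 14479 genes in that order. The smallest p in the first was that of *Catsperg1* (-0.26, unadjusted p = 0.101), followed by *Slc9c1* (-0.48, 0.145) and *Catsperb* (-0.42, 0.152). In the second, *Kcnu1* came first (0.30, unadjusted p = 0.108), then *Catsper4* (0.24, 0.241) and *Catsper1* (0.20, 0.322).

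Markers of other cells were also summed in the KO fractions. In KO the Sertoli list summed to 14.2 to 25 CPM in pachytene and 32.0 to 40.4 CPM in round spermatids, below every WT library of the same stage. Leydig markers gave 25.4 to 107 and 6.48 to 10.4 CPM, peritubular markers 59.5 to 74.2, 315 to 414 and 293 to 367 CPM in the 3 stages, and macrophage markers 2.8 to 3.17, 15.1 to 20.7 and 14.4 to 22.4 CPM. Most of each peritubular sum was again *Actg2*. The red blood list, again mostly *Alas2*, reached 18.4 to 25.8 CPM and the spermatogonium list 61.4 to 73.9 CPM in KO condensing spermatids. Their part in the genotype comparisons was not tested.

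In WT spermatozoa most of the 10 genes were far below condensing spermatids. *Catsper1* was at 13.7 and 12.1 CPM in the 2 libraries, *Catsper3* at 5.25 and 5.90 CPM and *Catsper4* at 20.4 and 16.3 CPM. *Catsper2* was at 162 and 147 CPM and *Catsperg1* at 169.9 and 122 CPM. *Slc9c1* was at 36.1 and 31.2 CPM and *Kcnu1* at 25.7 and 22.2 CPM. The auxiliary genes *Catsperb*, *Catsperd* and *Catsperg2* were at 44.3 and 44.7 CPM, 29.4 and 30.9 CPM and 104 and 78.0 CPM. For all but *Catsperg1* and *Catsperg2*, both spermatozoa libraries lay below all 3 condensing libraries. By edgeR 8 of the 10 genes fell, against 35.8% of the 15116 genes tested, and 0 rose, against 36.6%, with 0 of the 10 log2 fold changes above 0. DESeq2 called 0 higher, beside 5101 of all genes. The median was -1.60, beside -0.00014 for all genes.

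The largest step into spermatozoa was that of *Catsper3*, at a log2 fold change of -3.15 ± 0.24 (SE; adjusted p = 1.95e-10, edgeR), followed by *Catsper1* at -2.36 ± 0.19 (adjusted p = 4.19e-10) and *Slc9c1* at -2.27 ± 0.19 (adjusted p = 9.84e-10). *Catsper4*, *Kcnu1*, *Catsperd* and *Catsperb* gave -1.99, -1.75, -1.45 and -1.20, with adjusted p from 2.89e-09 to 9.6e-07. *Catsper2*, by contrast, gave -0.56 ± 0.15 (adjusted p = 0.00255; 3.37e-06 to 0.0645 over all alternatives), and was called with any 1 condensing library left out. Leaving out 1 of the 2 spermatozoa libraries leaves a group of 1, so the spread in those 2 fits comes from the condensing libraries only and their p says nothing of the spread between spermatozoa libraries. In such a fit, without WT spermatozoa replicate 2, *Catsper2* was at -0.49 and not called (adjusted p = 0.0645). *Catsperg1* was not called at -0.064 ± 0.15 (adjusted p = 0.725), its 2 spermatozoa libraries lay on either side of the condensing libraries, and the value turned to 0.16 with spermatozoa replicate 1 alone. *Catsperg2* was not called at -0.37 ± 0.17 (adjusted p = 0.0545) but was called without WT condensing replicate 3 (0.000564), with no filter (0.0179) and with library size as the only scaling (0.0483). The 2 fits with 1 spermatozoa library gave 0.0381 with replicate 2 and 0.507 with replicate 1, and all alternatives 0.000564 to 0.507.

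The spermatozoa libraries also differed in their other contents. The 6 of 6 epididymis epithelium markers, led by *Crisp1* and with *Lcn5* and *Lcn8* at 0, summed to 1792 and 1896 CPM in WT and 549.99 CPM in KO spermatozoa, and to no more than 2.01 CPM in any library of the other stages. *Cst11* and *Ovch2* were also at 0 in WT spermatozoa replicate 2 and in KO spermatozoa. Macrophage markers summed to 275 and 278 CPM in WT, led by *Adgre1* or *Csf1r*, and to 1216 CPM in KO, led by *Csf1r*. The elongating spermatid list, led by *Odf1*, gave 30940 and 27687 CPM in WT and 10625 CPM in KO. Round spermatid markers summed to 511 and 441 CPM in WT and 229.6 CPM in KO, and pachytene markers to 240.2 and 206 CPM in WT and 139 CPM in KO. Sertoli markers gave 255 and 214 CPM in WT and 287 CPM in KO, and Leydig markers 11.4 and 11.8 CPM in WT and 16.7 CPM in KO. *Clu* alone was at 225 and 185 CPM in WT and 273 CPM in KO. Without *Clu*, the rest of the Sertoli list summed to less in KO than in either WT library. The peritubular list, mostly *Actg2*, gave 94.4 and 87.4 CPM in WT and 48.7 CPM in KO. The red blood list, mostly *Alas2*, gave 49.8 and 49.6 CPM in WT and 46.6 CPM in KO. For the spermatogonium list the sums were 43.4 and 54.1 CPM in WT and 70.0 CPM in KO. Mitochondrial ribosomal RNA took 10.9% of the counts in WT and 5.93% in KO spermatozoa, beside 4.48% to 6.47% in WT condensing spermatids. The part of these markers and of this RNA in the results for spermatozoa was not tested.

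KO spermatozoa had 1 library, so no test was run, and levels are given with exact Poisson 95% intervals, which cover counting error only. Together the 10 genes took 0.0315% of its counts. *Catsper2* was at 82.8 (95% interval 73.3 to 93.3) CPM, *Catsperd* at 8.22 (95% interval 5.42 to 12) CPM, *Catsperg2* at 33.8 (95% interval 27.8 to 40.7) CPM and *Catsperb* at 21 (95% interval 16.3 to 26.6) CPM. These 4 of the 10 genes lay below the intervals of both WT libraries and 0 lay above, against 17.7% below and 23.2% above among the 12969 genes with at least 30 counts over the 3 spermatozoa libraries. The interval of each of the other 6 genes overlapped that of a WT library, as for *Catsperg1* at 100.5 (95% interval 89.9 to 112) CPM, *Slc9c1* at 24.4 (95% interval 19.3 to 30.3) CPM and *Kcnu1* at 19.8 (95% interval 15.3 to 25.2) CPM. *Catsper1*, *Catsper3* and *Catsper4* were at 8.83, 4.87 and 12.5 CPM. Reads given to no gene made up 57.7% of the counted reads of this library, beside 48.5% and 47.8% in WT, and the spread between KO animals is unknown.

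Levels of different genes were compared per length, as CPM per kilobase of merged exons (mean ± SD over libraries). In WT round spermatids the highest was *Catsper2* at 114 ± 0.963, followed by *Catsper3* at 76.8 ± 3.48 and *Catsper4* at 73.4 ± 1.53, whose libraries overlapped. Next came *Catsper1* at 69.0 ± 2.31 and *Slc9c1* at 65.0 ± 7.08, which overlapped as well, and then *Kcnu1* at 46.0 ± 1.94. The auxiliary subunits were lowest, with *Catsperd* at 32.7 ± 2.10, *Catsperg1* at 28.3 ± 0.164, overlapping *Catsperg2* at 25.1 ± 2.90, and *Catsperb* at 20.4 ± 1.84. Reads from stretches shared with another gene were not counted, which concerns *Catsperg1* (28.7% of stretches), *Catsperg2* (28.4%) and *Catsperb* (10.1%). The full length was still the divisor, so their levels may be too low. Their places in the order, also against *Catsperd*, are uncertain. With the longest transcript as the length, *Catsper4* (89.4) stood above *Catsper3* and *Catsper2* reached 183.

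The order differed in the other stages. In WT pachytene spermatocytes *Catsper2* led at 76.7 ± 4.85 CPM per kilobase, *Slc9c1* (42.0 ± 16.1), *Catsperd* (40.1 ± 1.23) and *Catsperg2* (37.2 ± 2.05) followed with overlapping libraries, and *Kcnu1* was lowest at 10.8 ± 1.82. Between them lay *Catsperg1*, *Catsperb*, *Catsper3*, *Catsper4* and *Catsper1*, from 23.2 down to 17.6, each overlapping the next. WT condensing spermatids ran from *Catsper2* at 63.9 ± 7.85 to *Catsperg2* at 17.4 ± 3.04, with *Slc9c1* (41.5 ± 8.64), *Catsper3* (37.6 ± 5.12) and *Catsper4* (36.0 ± 1.76) overlapping in between. The limit from shared reads holds in every stage, so the lowest place of *Catsperg2* here is uncertain. In WT spermatozoa *Catsper2* (41.9 ± 2.8), *Catsperg1* (20.7 ± 4.84) and *Catsperg2* (13 ± 2.65) led without overlap, and *Catsper3* was lowest at 4.09 ± 0.338. The pore subunits other than *Catsper2* therefore stood below the auxiliary *Catsperd* in pachytene spermatocytes, above it in round and condensing spermatids, and near or below it in spermatozoa, by merged exons. With the longest transcript as the length, *Catsper1* (31.5) was instead below *Catsperd* (33.3) in WT condensing spermatids and *Kcnu1* (23.7) was lowest there, below *Catsperg2* (27.5), each pair with overlapping libraries. In WT pachytene spermatocytes *Catsperg2* (58.7) then came second, above *Catsperd* (56.3) and *Slc9c1* (44.4), again with overlap, and in WT spermatozoa the first 3 genes and the lowest stayed the same.

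Other genes of the same machinery took different courses. Of 8 listed CatSper accessory proteins and partners 5 were found in the table, and *Catspere1*, *Tmem249* and *Tmem262* were not found under these symbols. The table lists *Catspere2* as *Gm16432*, *Catsperz* as *Tex40* and *C2cd6* as *Als2cr11*. From pachytene to round spermatids in WT 2 of the 5 rose, against 34.4% of all genes tested, and 1 fell, against 35.9% (median 0.19). From round to condensing spermatids 1 rose, against 28.3%, and 3 fell, against 21.8% (median -0.58). *Efcab9*, the gene of a calcium sensor of the channel, was at 38.1 ± 11.5 CPM (SD, n = 3) in WT pachytene, 152 ± 7.29 CPM in WT round and 78.5 ± 10.0 CPM in WT condensing spermatids, a course like that of *Catsper1*. Its log2 fold changes were 2.02 ± 0.19 (SE; adjusted p = 6.82e-07, edgeR) and -0.92 ± 0.18 (adjusted p = 0.00104). *Catspere2*, an auxiliary subunit gene, went the other way, from 24.9 ± 7.65 to 8.12 ± 0.613 and 13 ± 1.20 CPM, with -1.58 ± 0.21 (adjusted p = 1.71e-05) and 0.70 ± 0.22 (adjusted p = 0.0181). The rise at the second step was not called without WT condensing replicate 1 (adjusted p = 0.0636) or without WT round replicate 3 (adjusted p = 0.0633; 0.00185 to 0.0636 over all alternatives). *C2cd6*, whose product takes part in placing the channel in the tail, rose at the first step by 0.68 ± 0.17 (adjusted p = 0.00244) from 249 ± 46.9 to 391 ± 70.7 CPM. In KO 2 rose, against 36.5%, and 1 fell, against 38.4%, at the first step, and 1 rose, against 29.7%, and 3 fell, against 24.5%, at the second. All 5 fell from WT condensing spermatids to WT spermatozoa, against 35.8%. Of these *Catspere2* was at the edge of the threshold (-0.59 ± 0.26, adjusted p = 0.0493, 2 spermatozoa libraries), and 4 of the 5 genes were called in each of the 5 fits with 1 library left out and in 3 of 5 other alternatives. KO against WT gave 0 calls in any of the 3 stages by edgeR, where an unadjusted p under 0.05 was reached by 0 genes in pachytene, 0 in round and 1 in condensing spermatids, against 6.66%, 5.88% and 6.33% of all genes tested. Without WT pachytene replicate 3 it gave 1 call in pachytene spermatocytes, against 1.94% of 12555 genes tested, and under every other alternative 0 in each stage.

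A list of 22 other ion transport and signalling genes of sperm had 19 genes that passed the filter in the stage steps. Genes that pass only where they are high are bound to differ, so counts are given over the 17 with at least 10 counts in each library of both stages, a limit set after the values were seen. From pachytene to round spermatids in WT 9 of the 17 were higher, against 32.8% of all genes with such counts, and 2 lower, against 40.5% (median 1.34). From round to condensing spermatids 3 of 17 were higher, against 24.2%, and 6 lower, against 25.2% (median -0.26). *Lrrc52*, the gene of the auxiliary subunit of SLO3, was at 7.73 ± 0.556 CPM (SD, n = 3) in WT pachytene, 27.7 ± 6.10 CPM in WT round and 12.7 ± 1.62 CPM in WT condensing spermatids, with the course of *Kcnu1*. Its log2 fold changes were 1.87 ± 0.18 (SE; adjusted p = 1.23e-06, edgeR) and -1.10 ± 0.18 (adjusted p = 0.000316). Some genes instead rose at both steps. *Atp1b3*, a sodium pump beta subunit gene, went from 141 ± 28.7 to 549 ± 26.6 and 864 ± 147 CPM, with 1.99 (adjusted p = 3.78e-07) and 0.68 (adjusted p = 0.00415). *Car2*, a carbonic anhydrase gene, gave 2.62 (adjusted p = 2.28e-06) and 0.66 (adjusted p = 0.0477), and *Pkd2*, a cation channel gene, 2.31 (adjusted p = 7.86e-07) and 0.80 (adjusted p = 0.00217). The second of these *Car2* calls was lost in 7 of 9 fits with 1 library left out (0.40 to 0.77) and in 3 of 8 other alternatives, with adjusted p from 0.0027 to 0.227 over all of them. In KO 9 of the 17 were higher, against 35.2%, and 2 lower, against 43.7%, at the first step, and 3 higher, against 25.2%, and 9 lower, against 28.1%, at the second. Between genotypes edgeR called 0 in each stage, where an unadjusted p under 0.05 was reached by 3 of 17 genes tested in pachytene, 0 in round and 0 in condensing spermatids, beside the shares of all genes given above. Leaving out WT pachytene replicate 3 gave 2 calls of 17 genes in pachytene spermatocytes, against 1.94% of all genes tested, and every other alternative 0 in each stage.

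From WT condensing spermatids to WT spermatozoa, 1 of the 15 genes of this list with at least 10 counts in each library of both was higher, against 34.8% of all genes with such counts, and 9 were lower, against 37.4%. It was *Atp1b3*, which went from 864 to 1276 CPM (0.61, adjusted p = 0.00346, edgeR). Among genes below that limit, 2 are named after their values were seen. *Hvcn1*, the gene of a proton channel, was at 0.581 to 0.879 CPM in WT condensing spermatids and 34.0 to 40.8 CPM in WT spermatozoa. *Slc26a3*, an anion exchanger gene, was at 0 to 0.154 CPM and 7.28 to 12 CPM. Both entered the test only through spermatozoa, so no fold change is given. None of the 10 channel and exchanger genes rose at this step. The macrophage and epididymis marker sums given above were also higher in spermatozoa, and their part in the result was not tested.

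The genes whose levels were most alike were sought over the 18 libraries of the 3 stages among 14039 genes with a mean of at least 1 CPM, by Pearson's r of log2(CPM + 1). These values describe libraries that share stages and are no test. *Catsper1* was most like *Mmel1* (0.998), *Vwa5b1* (0.996) and *Klf4* (0.996), *Catsper3* most like *Tsga8* (0.995), *Slc22a14* (0.995) and *Ttc39a* (0.994), and *Catsper4* most like *Amer2* (0.995), *Ttc39a* (0.995) and *Klf4* (0.994). For *Catsper2* they were *Slc22a15* (0.987), *Kpna2* (0.983) and *Spesp1* (0.981), and for *Kcnu1* *Cdkn2aip* (0.996), *Coro2a* (0.994) and *Pdilt* (0.994). Among auxiliary subunits, *Catsperb* was most like *Matr3* (0.985), *Rasa1* (0.970) and *Nol8* (0.968), *Catsperd* *Tbp* (0.985), *Tdrd6* (0.981) and *Pabpc1* (0.980), *Catsperg1* *Braf* (0.933), *Uhrf1bp1l* (0.903) and *Cep135* (0.891) and *Catsperg2* *Vimp* (0.982), *Cbll1* (0.979) and *Wdr35* (0.978). *Slc9c1* was most like *Ddias* (0.975), *Smc5* (0.956) and *Cep350* (0.952). Within the 10 genes, r was 0.992 for *Catsper1* and *Catsper3*, 0.992 for *Catsper1* and *Catsper4*, 0.989 for *Catsper3* and *Catsper4* and 0.982 for *Catsper4* and *Kcnu1*. *Catsperd* and *Catsperg2* had an r of 0.950, *Catsperg1* and *Slc9c1* 0.802, the copies *Catsperg1* and *Catsperg2* 0.146, and *Catsperg2* and *Kcnu1* -0.554, the lowest named here.

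The genes lie on 9 chromosomes (mm10, GENCODE M21). *Catsper1* is at chr19:5335741-5344280 (plus strand), *Catsper2* at chr2:121392631-121413792 (minus strand), *Catsper3* at chr13:55784568-55808998 (plus strand) and *Catsper4* at chr4:134211970-134227383 (minus strand). *Catsperb* is at chr12:101404653-101626009 (plus strand), *Catsperd* at chr17:56628143-56664456 (plus strand), *Catsperg1* at chr7:29181321-29214035 (minus strand) and *Catsperg2* at chr7:29697219-29727032 (minus strand). *Kcnu1* is at chr8:25849623-25937939 (plus strand) and *Slc9c1* at chr16:45535309-45607001 (plus strand). No exon of the 10 genes overlapped an exon of another gene on the same strand, and *Catsper2* shares 18 bases with *Pdia3* on the opposite strand.

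Promoters of 7 of the 10 genes, 9 promoters in all, were read from a RefSeq promoter file (GRCm38.p6; 250 bases before to 50 after the gene start), and those of *Catsper1*, *Catsperg2* and *Kcnu1* were not analysed here. Both strands were searched for motifs of factors active in germ cells. The share of all 32851 promoters of this length that hold each motif was 1.79% for the cyclic AMP response element TGACGTCA, 20.8% for its shorter form TGACG, which the longer one contains, 4.38% for the RFX motif GTTGCCA, 3.66% for the SOX motif ACAATGG and 12.8% for the MYB motif AACTGNC. The short form TGACG was found in *Catsper2* (at position -77 from the gene start) and in the upstream promoter of *Catsperd* (-160, -141 and -106). The MYB motif was found in *Catsper2* (-43), *Catsperb* (-116, -100 and -13) and *Slc9c1* (15). The long response element and the RFX and SOX motifs were in 0 of the 9 promoters. The following windows show matches before the gene start in *Catsper2*, *Catsperb* and *Catsperd*, with the motif in capitals on either strand, at chr2:121413818-121413846 (minus strand) and chr2:121413854-121413880 (minus strand), both within an exon of *Pdia3* on the other strand, chr12:101404562-101404590 (plus strand) and chr17:56626895-56626921 (plus strand). A match says only that these letters are present.

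Catsper2 MYB: gaacagctggtAACTGCCgattggcgggc
Catsper2 TGACG: ccgattggctgCGTCAcgcagcgtcgg
Catsperb MYB: ttggaaattccAACTGCCtatcctttaag
Catsperd TGACG: caccgcacttaCGTCAtctctgctcgc

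None of the 5 motifs was present in the promoters of *Catsperg1*, in the downstream promoter of *Catsperd* or in the promoters of *Catsper3* and *Catsper4*. *Catsper3* and *Catsper4* rose together into round spermatids. The 120 bases from 170 to 51 before the gene start are shown for both, at chr13:55784409-55784528 (plus strand) for *Catsper3*, where an antisense gene, *4930451E10Rik*, has an exon on the other strand, and chr4:134227434-134227553 (minus strand) for *Catsper4*, where the annotation lists no gene.

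Catsper3 promoter: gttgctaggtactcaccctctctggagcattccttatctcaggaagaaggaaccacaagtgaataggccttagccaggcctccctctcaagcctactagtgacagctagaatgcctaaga
Catsper4 promoter: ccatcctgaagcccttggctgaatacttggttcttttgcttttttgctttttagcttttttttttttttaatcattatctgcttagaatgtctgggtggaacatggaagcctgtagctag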

How the data were processed

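RNA libraries were stranded, total and ribosomal RNA depleted. The authors aligned reads to mm10 (STAR 2.7.11b), used HTSeq on exons with the reverse strand, strict intersection and uniquely aligned reads, and deposited a raw count for each gene, without normalization. Entries that name no gene, 34.6% to 57.7% of the counted reads, were left out. Genes kept by filterByExpr were TMM-normalized and tested in each comparison by quasi-likelihood (edgeR 4.0.16 in R 4.3.3), with Benjamini-Hochberg adjusted p over all genes tested and a threshold of 0.05, and all 10 genes passed the filter in each comparison. WT stage changes used 9 WT libraries, KO stage changes 9 KO libraries, and interactions 18. The SE of a log2 fold change was its absolute value divided by the square root of the test's F. It therefore rests on a spread estimated over all libraries of the fit and moderated across genes. KO spermatozoa were not tested.

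Members and lists were chosen with earlier results of these data known. Named are the 10 genes, *H2afb1*, for KO comparisons the 3 genes with the smallest p, and from each pathway list the genes called in both WT stage changes or, if fewer than 4, the 4 most changed among those called at the first. Of these lists, 1 gene is not reported here. Marker lists covered spermatogonia, pachytene spermatocytes, round and elongating spermatids, and Sertoli, Leydig, peritubular, macrophage, red blood and epididymis cells. Tests were repeated with DESeq2 1.42.0 (Wald), its size factors, library size only, no filter, a minimum of 10 counts in each library, replicate number as a block, all 18 libraries in 1 fit, and each library left out. Summing WT round replicates 2 and 3 was chosen after seeing the data. Sequences came from RefSeq and GENCODE M21.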

Additional observations from a re-analysis of the deposited data

Results flagged for a closer look

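The KO spermatozoa library, which entered no test, had 3 genes of the list of other sperm ion transport and signalling genes and 1 marker list above the counting intervals of both WT spermatozoa libraries. Below them were 12 of the 27 genes of the 2 pathway lists, 5 of the 10 marker lists and 4 of the 10 channel and exchanger genes. Of all genes counted, 12.6% were above and 9.5% below, and of those with at least 30 counts over the 3 libraries 23.2% and 17.7%. *Hvcn1* was at 61.2 CPM, beside 40.8 and 34.0 CPM in WT. *Slc9a8*, a sodium/proton exchanger gene, was at 58.5 CPM, beside 41.7 and 37.1 CPM, and *Pkd2* at 15.5 CPM, beside 7.00 and 6.59 CPM. The summed macrophage markers were at 1216 CPM, beside 275 and 278 CPM in WT. With 1 KO library the spread between KO libraries is unknown and the differences were not tested.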

How the results depend on the processing

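Of the log2 fold changes under the alternatives, 1040 of 1120 had the same direction and call, 56 lost a call, 17 gained one and 7 turned. For the 7 named genes of the 2 other lists, in the WT stage changes, they were the same in 224 of 238, with 12 calls lost, 2 gained and 0 turned, and the number of list genes called stayed within 1.5 times in 330 of 332 cases. The number of the 10 genes called stayed within 1.5 times in 166 of 166 alternatives. With 1 library left out it was 6 to 9 for WT round against pachytene, 7 to 9 for WT condensing against round, 7 to 8 for each KO step, 7 to 9 for spermatozoa and 0 for each genotype comparison and interaction. Only changes that were not called turned. *Catsperg1* from KO pachytene to KO round spermatids was -0.091 with library size only and ranged from -0.011 to 0.13 with 1 library left out. In such fits *Catsperb* ranged from -0.36 to 0.17 for WT round against pachytene and -0.24 to 0.095 for KO condensing against round spermatids, *Catsperg1* from -0.32 to 0.16 in spermatozoa, *Slc9c1* from -0.24 to 0.092 for KO against WT in round spermatids, and the *H2afb1* interaction of round and pachytene stages from -0.53 to 0.051. In spermatozoa 1 lost, 1 gained and 1 turned change came from fits with 1 spermatozoa library left, whose spread is that of the condensing libraries only, and with 2 left the number called was 8 to 9. The 10 genes' median moved in 3 of 166 cases, all at the first step, to 0.44 (WT) and 0.23 (KO) with library size only and to 0.50 (KO) without KO round replicate 1.

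Genes called by KO against WT over the whole table moved more. In pachytene spermatocytes they numbered 2 with DESeq2, 1 with no filter and 4 in the fit of 18 libraries. In round spermatids they numbered 6 with DESeq2, 1 with DESeq2 size factors, 28 with no filter, 61 with the replicate block, 1 in the fit of 18 libraries and 1 with WT replicates 2 and 3 summed. In condensing spermatids they were 9 with DESeq2, 7 with library size only, 27 with no filter and 26 with the block, and for the interaction of round and pachytene stages 1 with DESeq2 and 1 with no filter. With 1 library left out they ranged from 0 to 243 in pachytene, 1 to 264 in round and 1 to 24 in condensing spermatids, and 0 to 4 and 0 to 1 for the interactions. Replicates that share a number correlated across genotypes with r = -0.105, -0.163 and -0.215 in pachytene, 0.264, 0.106 and 0.0601 in round and 0.0796, -0.0307 and 0.0813 in condensing spermatids.

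Levels per length in WT round spermatids moved beyond 1 SD in 16 of 30 cases. With the longest transcript they were 183 (*Catsper2*), 89.4 (*Catsper4*), 30.3 (*Catsperb*), 45.9 (*Catsperd*), 45.3 (*Catsperg1*), 39.6 (*Catsperg2*) and 48.6 (*Kcnu1*) CPM per kilobase. With DESeq2 size factors they were 116 (*Catsper2*), 75.0 (*Catsper4*) and 29.0 (*Catsperg1*), and with library size only 64.9 (*Catsper1*), 107 (*Catsper2*), 72.3 (*Catsper3*), 69.1 (*Catsper4*), 26.7 (*Catsperg1*) and 43.3 (*Kcnu1*). These moves follow by construction from the shorter length or the other scaling. Depth limits *Catsper3* most, with 16 counts in KO spermatozoa.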
